A study of Homo sapiens with 16 samples.

Results

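Narrow LSD1 islands are the stretches of at most 1000 bp that were called as bound by LSD1 in chromatin immunoprecipitation followed by sequencing (ChIP-seq). They were selected on the width of each called island, the last minus the first position plus 1, in the lists of 8 libraries, on autosomes only. This rule took 1170 of 85342 autosomal islands, or 1.37%. All widths were multiples of a window of 200 bp, so narrow islands hold at most a few windows and the next width outside the rule is 1200 bp. They covered 951.8 kb in all, counted once per library.

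LSD1 (KDM1A) is a demethylase that removes methyl groups from histone tails, mostly as a subunit of repressor complexes with CoREST and histone deacetylases. It acts at promoters and enhancers, where such complexes sit on short stretches of open chromatin, and a wide called domain can hold several such places. HOTAIR, a long non-coding RNA, binds both LSD1 and the histone methyltransferase complex PRC2, and was proposed to bring them to chromatin.

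The study used 4 lines derived from HEK, an established cell line of human embryonic kidney. Epi-CTR is the control line and Epi-HOT expresses HOTAIR. Epi-HOTΔP and Epi-HOTΔL (the labels write the Δ out as delta) express HOTAIR without the part that interacts with PRC2 or with LSD1. These descriptions come from background knowledge of the study, since the labels hold only names; whether a line is a clone is not stated there. Each line had 2 independently grown cultures, and each of the 8 lists sets an LSD1 immunoprecipitate against the input chromatin of its own culture. The lists held 1114 to 20551 autosomal islands and give a false discovery rate (FDR) per island but no reads, so the depth behind each list is unknown and a place without an island may be one with fewer reads. Epi-HOT replicate 2 and Epi-HOTΔP replicate 1 stand apart from the other 6 lists by their short length, 1776 and 1114 islands, and by a low share of islands on chromosome 19; results are also given without them.

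Nearly all narrow islands came from 2 lines. Epi-CTR replicate 1 held 542, Epi-CTR replicate 2 228, Epi-HOTΔL replicate 1 307 and Epi-HOTΔL replicate 2 56, together 1133 or 96.8%. Epi-HOT replicate 1 held 25 and Epi-HOT replicate 2 held 3. Epi-HOTΔP replicate 1 held 3 and replicate 2 held 6. Epi-CTR replicate 1 alone gave 46.3% of all members, so any count over all libraries is led by it.

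The share of islands that were narrow also differed between libraries. It was 2.64% of the islands of Epi-CTR replicate 1 (exact Clopper-Pearson 95% interval 2.42 to 2.87) and 1.53% in replicate 2 (1.34 to 1.74). Epi-HOTΔL replicate 1 had 1.83% (1.64 to 2.05), while its replicate 2, with 15681 islands, had 0.357% (0.270 to 0.464). The shares were 0.384% (0.249 to 0.567) and 0.169% (0.0348 to 0.493) in the Epi-HOT replicates. They were 0.269% (0.0556 to 0.785) and 0.0743% (0.0273 to 0.162) in the Epi-HOTΔP replicates. Epi-HOTΔL replicate 2 therefore lay beside Epi-HOT replicate 1, with overlapping intervals, and not beside the other culture of its own line. The intervals cover counting error over islands only.

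**Figure D1:**
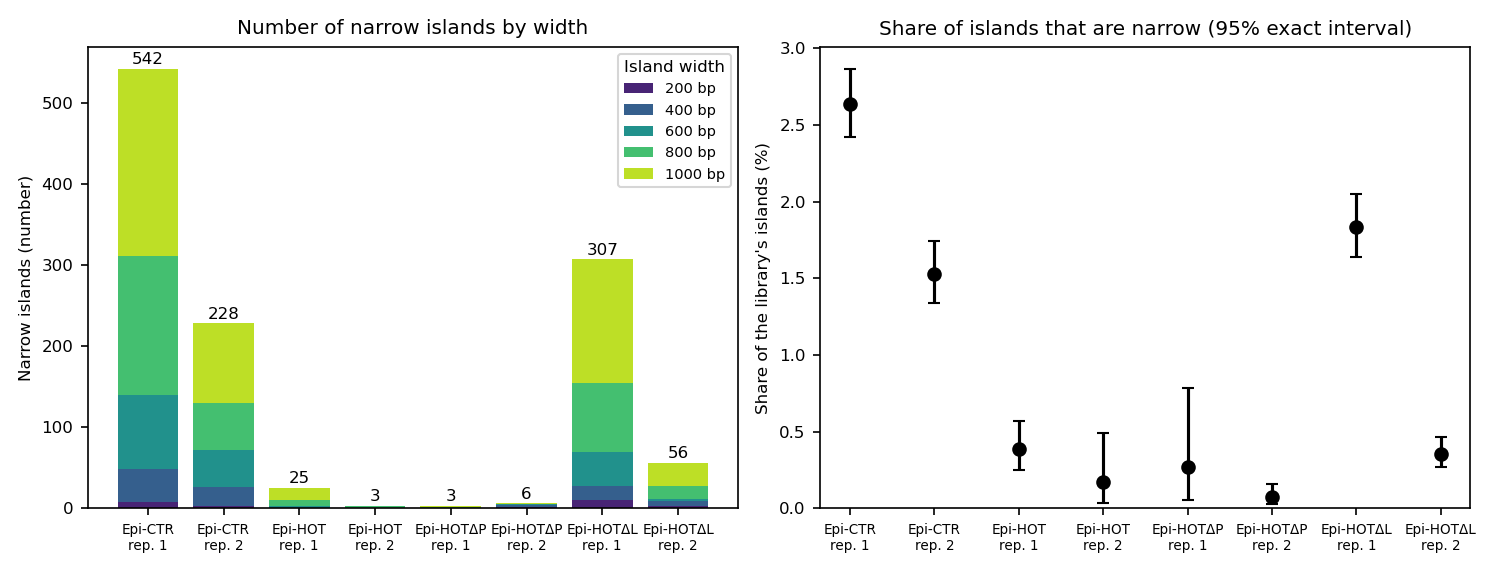
Left, number of narrow islands in each library, stacked by island width in bp; right, the share of each library's autosomal islands that are narrow, in percent, with exact 95% intervals. Epi-CTR replicate 1 holds 542 and Epi-HOTΔP replicate 2 holds 6, although the latter list has 8077 islands.

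The lines were compared by this share to ask whether the proportion of short LSD1 islands differs with the form of HOTAIR expressed. Epi-CTR had 2.08% ± 0.783 narrow islands (SD, n = 2) and Epi-HOT 0.277% ± 0.152. Both Epi-HOT libraries lay below both Epi-CTR libraries, a difference of -1.81 percentage points (two-sided exact permutation p = 0.333, the smallest that 2 libraries against 2 allow). Epi-HOTΔL had 1.1% ± 1.04, and its difference from Epi-HOT, 0.819 points, was smaller than the spread between its replicates (exact permutation p = 0.667). It was 0.0805 points without Epi-HOTΔL replicate 1 and 1.56 without its replicate 2. With lists shortened by FDR to equal length it was 2.90 points, and Epi-HOT minus Epi-CTR was -5.01 points (exact permutation p = 0.333). Neither of these passed 0.05. The shortening keeps the islands with the lowest FDR, so these 2 values describe the head of each list only. Epi-HOTΔP had 0.172% ± 0.138, which differed from Epi-HOT by -0.105 points (exact permutation p = 0.667). After Benjamini-Hochberg adjustment over the 6 tests of this report each of the 3 had an adjusted p of 0.667, and none of these comparisons could have passed 0.05.

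Within the members, the widest class was the most common. There were 526 islands of 1000 bp (45.0%), 342 of 800 bp, 184 of 600 bp, 91 of 400 bp and 27 of a single window. The decline went on from the other side of the limit, where 803 islands had 1200 bp. Just inside the limit, the 231 islands of 1000 bp in Epi-CTR replicate 1 had a median FDR of 1.37e-05, and just outside it the 315 of 1200 bp had 3.42e-05. The corresponding medians were 0.000488 and 0.000822 in Epi-CTR replicate 2 and 0.00188 and 0.00300 in Epi-HOTΔL replicate 1. In Epi-HOT replicate 1 the order was the opposite, 0.00734 for 15 islands inside and 0.00179 for 29 outside.

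Narrow islands had low FDRs for their list. Their median FDR was 2.69e-06 in Epi-CTR replicate 1, against 0.000296 for the wider islands of that list. It was 7.93e-05 against 0.00317 in Epi-CTR replicate 2, and 0.000874 against 0.00838 in Epi-HOTΔL replicate 1. In Epi-HOTΔL replicate 2 the values were 0.000609 and 0.00267. Epi-HOT replicate 1 was the exception among the libraries with more than a few members, with 0.00651 for narrow and 0.00464 for wider islands. The FDR comes from the same call as the width and is the authors' value, so these medians are descriptions without a test.

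Narrow islands were also found at the head of the lists. Of the narrow islands, 121 of 542 (22.3%) in Epi-CTR replicate 1, 79 of 228 (34.6%) in Epi-CTR replicate 2 and 112 of 307 (36.5%) in Epi-HOTΔL replicate 1 were among the 10% of islands with the lowest FDR of their list. Epi-HOTΔL replicate 2 went the other way, with 2 of 56 (3.57%). The best rank of a narrow island was 5 in Epi-CTR replicate 1, 15 in Epi-CTR replicate 2 and 7 in Epi-HOTΔL replicate 1, but 851 in Epi-HOTΔL replicate 2. By width, the median FDR of Epi-CTR replicate 1 was 3.56e-07 at 200 to 600 bp, 7.29e-06 at 800 to 1000 bp, 0.000115 at 1200 to 2000 bp and 0.000530 at 2200 to 5000 bp, and fell again to 0.000132 above 5000 bp.

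**Figure D2:**
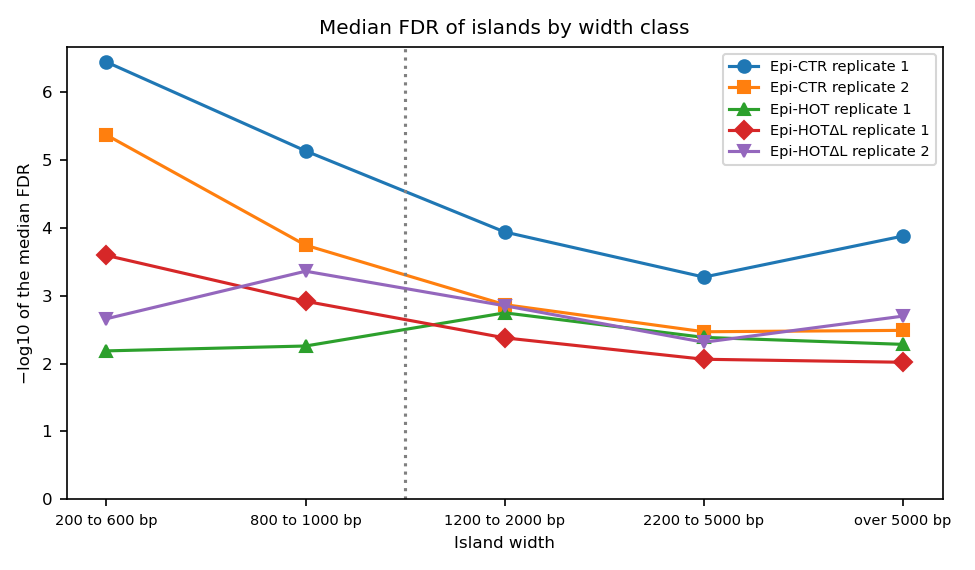
Median FDR, as −log10 on the y axis, of islands in 5 width classes, for the 5 libraries with at least 25 narrow islands; the dotted line is the limit of 1000 bp. In both Epi-CTR libraries and Epi-HOTΔL replicate 1 the shortest islands have the lowest median FDR, 3.56e-07, 4.25e-06 and 0.000254, whereas Epi-HOT replicate 1 (0.00651) and Epi-HOTΔL replicate 2 (0.00218) have higher values there than at 1200 to 2000 bp.

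In every list with at least 25 members, narrow islands were more isolated than wider ones. The median gap to the nearest island of the same list was 19.6 kb in Epi-CTR replicate 1, 41.7 kb in Epi-CTR replicate 2 and 29.0 kb in Epi-HOTΔL replicate 1, against 12.2, 17.8 and 19.2 kb for wider islands. In Epi-HOTΔL replicate 2 it was 100.1 kb against 10.0 kb, and in Epi-HOT replicate 1 160.0 kb against 57.6 kb. Neighbours within 5 kb were found for 25.3% of the narrow islands of Epi-CTR replicate 1 and 11.4% of those of replicate 2, compared with 30.5% and 24.7% of the wider ones. The gap allowed when windows were joined, 1000 bp, sets a lower limit to all these distances, and no 2 islands of a list lay closer than 1200 bp.

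By position, narrow islands lay less often on chromosome 19, which is dense in genes, than wider islands did. Chromosome 19 held 22 of 542 narrow islands in Epi-CTR replicate 1 (4.06%, against 5.65% of wider islands), 8 of 228 in Epi-CTR replicate 2 (3.51% against 7.01%) and 7 of 307 in Epi-HOTΔL replicate 1 (2.28% against 6.44%). It held none of the 56 of Epi-HOTΔL replicate 2, which had 5.64% of its wider islands there, and none of the 25 of Epi-HOT replicate 1 (5.46%). The share was lower for narrow islands in 8 of 8 libraries, by -3.46 percentage points on average (two-sided exact sign-flip permutation p = 0.00781, the smallest that 8 libraries allow; adjusted 0.0469 over 6 tests). In 3 of the 8 libraries this rests on 3 to 6 narrow islands, none of them on chromosome 19. In Epi-HOT replicate 2 and Epi-HOTΔP replicate 1 only 0.395% and 0.360% of wider islands lay there. With 3 narrow islands each, a lower narrow share was nearly certain in these libraries, so their signs add little. Leaving out any library but Epi-HOTΔL replicate 2 raised the adjusted p to 0.0938 (exact permutation), with differences of -3.90 to -3.02 points. In the 5 libraries with at least 25 the mean difference was -4.07 points (SD 1.65, exact permutation p = 0.0625, again the smallest possible), which no 5 libraries can take below 0.05.

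How the next width class compared depended on the libraries used. Set against islands of 1200 to 2000 bp in all 8 libraries, the share of narrow islands on chromosome 19 was lower by -5.15 points (exact permutation p = 0.0156, adjusted 0.0938). That class held only 12 islands in Epi-HOT replicate 2, and 2 and 5 in Epi-HOTΔP replicates 1 and 2. The value over all 8 libraries therefore leans on very few islands. Set against islands of 1200 to 2000 bp in the 5 libraries alone, the difference was -0.908 points (exact permutation p = 0.0625). With the limit at 1400 bp and all 8 libraries the difference was -0.640 points (exact permutation p = 0.773, adjusted 0.773), and with that limit in the 5 libraries -4.07.

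Chromosome 16 showed the same direction, with 2.05% of all narrow islands against 4.70% of wider islands, the libraries weighted by their number of narrow islands. Chromosomes 17 and 20 had 3.93% against 5.89% and 2.05% against 3.72%. On the other side were chromosome 21, with 2.65% against 1.38%, chromosome 13, with 4.02% against 2.47%, chromosome 4, with 5.21% against 3.33%, and chromosome 6, with 6.92% against 4.60%. Per length, narrow islands were nonetheless densest on chromosome 22, at 123.0 per 100 Mb, followed by chromosomes 21 (80.2) and 19 (62.9), and sparsest on chromosome 18 (23.1). These densities count a place once for each library that called it. On chromosome 22, 17 of the 42 narrow islands lay at 5 places between 18 and 19 Mb, some of them called in several libraries. These chromosomes were looked at after the counts were seen, and apart from chromosome 19 they were not tested.

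**Figure D3:**
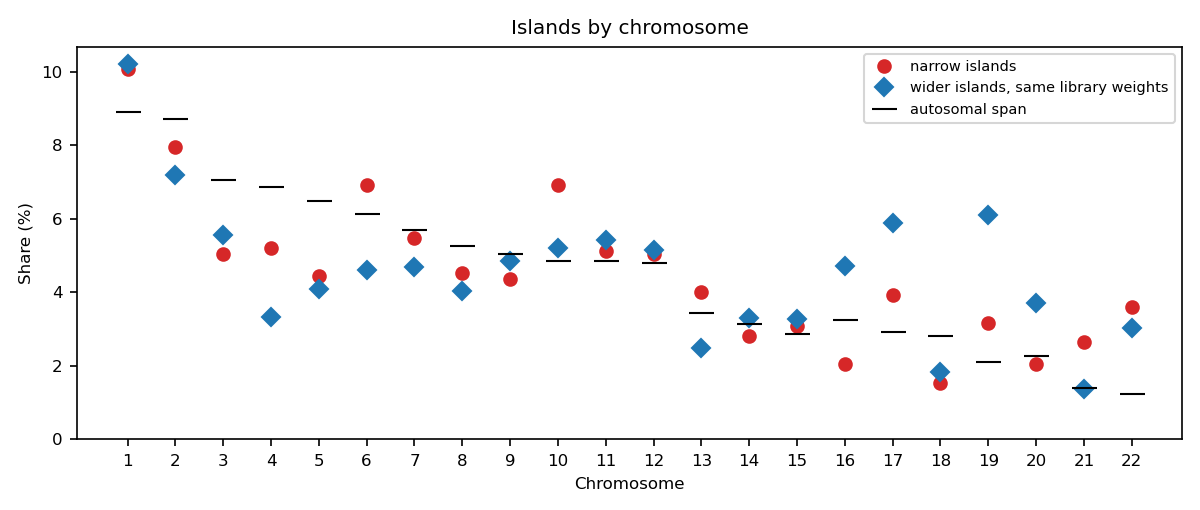
Share of all narrow islands, of wider islands (libraries weighted by their number of narrow islands) and of the autosomal span on each autosome, in percent. Narrow islands lie below wider islands on chromosomes 16, 17, 19 and 20 and above them on chromosomes 4, 6, 13 and 21.

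Narrow islands lay on every autosome, and whether their spread was even was not tested. The 1170 islands formed 1090 sites, a site being narrow islands of all lists merged where they shared at least 1 bp. These fell into 808 of 2785 bins of 1 Mb, and 594 bins held a single site. No bin held more than 5 sites, and 5 bins held that number. The bin from 18 to 19 Mb of chromosome 22 held 17 narrow islands at its 5 sites, and the other 4 bins held 5 or 6. Within 5 Mb of the first or last island of a chromosome, which is 7.90% of the span, lay 12% and 12.7% of the narrow islands of the Epi-CTR replicates, against 13.2% and 12.6% of their wider islands. In the other libraries with at least 25 members the narrow share was the lower, at 13.4% against 17.2% in Epi-HOTΔL replicate 1, 8.93% against 22.9% in its replicate 2 and 1 of 25 islands (4%) against 19.1% in Epi-HOT replicate 1.

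As narrow islands, few places recurred. Narrow islands were only 0.0743% to 2.64% of each list, and such sharing was not computed for another width class. Of the 1090 sites, 1029 were narrow in a single library, 51 in 2, 6 in 3, 3 in 5 and 1 in 6 libraries. The Epi-CTR replicates shared 27 narrow sites, which is 4.98% of the narrow islands of replicate 1 and 11.8% of those of replicate 2. The Epi-HOTΔL replicates shared 9, or 2.93% and 16.1%. Across these lines, Epi-CTR replicate 1 and Epi-HOTΔL replicate 1 shared 17 (3.14% and 5.54%). Epi-HOT replicates 1 and 2 shared none, nor did the Epi-HOTΔP replicates, with 3 to 25 members per list.

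The most recurrent narrow site lay at chr8:86733401-86734400 (hg19). It was 600 bp wide in Epi-CTR replicate 1 (FDR 0.0294), in Epi-CTR replicate 2 (1.51e-11) and in Epi-HOTΔP replicate 2 (1.83e-14, rank 7 of that list). It was 1000 bp wide in Epi-HOT replicate 1 (0.000267) and in Epi-HOTΔL replicate 2 (0.000121), and 800 bp in Epi-HOTΔL replicate 1 (0.000216). Only the lists that stand apart, Epi-HOT replicate 2 and Epi-HOTΔP replicate 1, had no island there. All 4 lines thus held this place as a short island in at least 1 culture.

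The 3 sites narrow in 5 libraries lay close together on chromosome 22. At chr22:18718001-18718400 the same 400 bp formed an island in both Epi-CTR libraries (FDR 0.00581 and 0.000367), Epi-HOTΔP replicate 2 (0.000443) and both Epi-HOTΔL libraries (0.00105 and 0.00218). A single window at chr22:18721201-18721400 was called in the same 5 libraries, with FDRs between 0.000113 and 0.0315. At chr22:18688001-18689000 an island of 400 bp was called in 4 of them, and one of 1000 bp in Epi-HOTΔL replicate 1 (9.60e-10, rank 46). Neither Epi-HOT library had an island at any of the 3. The list names carry a filter that is not explained in the sources used here, and its part in islands at identical windows was not tested.

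Among the sites narrow in 3 libraries, both Epi-CTR libraries (1.09e-05 and 7.93e-05) and Epi-HOTΔL replicate 1 (0.000242) had a single window at chr21:15457201-15457400. Epi-HOT replicate 1 had 1.2 kb and Epi-HOTΔL replicate 2 had 4.2 kb over it. The site at chr13:58066601-58067000 was the same 400 bp in both Epi-CTR libraries and Epi-HOTΔL replicate 2, with FDRs of 5.41e-05, 0.000264 and 0.000192, and had no island in the other 5 libraries. The site at chr12:32370601-32371400 was narrow in both Epi-CTR libraries (8.18e-07 and 7.11e-06) and Epi-HOTΔL replicate 1 (0.000714), with no island elsewhere. At chr10:35310601-35310800 a single window was called in Epi-CTR replicate 1 and both Epi-HOTΔL libraries, and an island of 1.2 kb in Epi-CTR replicate 2 and in Epi-HOTΔP replicate 2.

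Counting islands of any width, most narrow islands were not alone. A narrow island was taken as met where its midpoint lay in an island of another library. For a midpoint placed at random this does not depend on the width of its island. A wider island that overlaps a short one away from its own centre is, however, not counted as met. The rule can thus favour narrow over wider islands. By this measure 66.8% of the narrow islands of Epi-CTR replicate 1 were met in at least 1 other library (362 of 542, 95% interval 62.6 to 70.7), and 75.9% of those of Epi-CTR replicate 2 (69.8 to 81.3). The shares were 72.0% in Epi-HOT replicate 1 (50.6 to 87.9), 59.9% in Epi-HOTΔL replicate 1 (54.2 to 65.5) and 75.0% in Epi-HOTΔL replicate 2 (61.6 to 85.6). The islands of the other libraries covered 10.9% to 13.9% of the autosomal span, less than the share met in each of these 5.

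Wider islands of the same lists were met in 67.8%, 64.6%, 63.5%, 56.9% and 50.5%, in that order of libraries. The share was higher for narrow islands in 6 of 8 libraries, and the mean difference of 14.5 percentage points did not hold after adjustment (two-sided exact sign-flip permutation p = 0.0313, adjusted 0.0938 over 6 tests). It leans on Epi-HOT replicate 2, where all 3 narrow islands were met against 47.5% of wider ones, and without that library it was 4.84 points. With lists shortened by FDR to equal length it was 4.17 points (exact permutation p = 0.758). In the 5 libraries with at least 25 members the mean was 9.25 points (SD 9.77, exact permutation p = 0.125). Against islands of 1200 to 2000 bp alone, the mean over the same 5 libraries was 0.659 points (exact permutation p = 0.875), and over all 8 the sign turned, to -7.50 (exact permutation p = 0.688). In Epi-HOT replicate 2 and Epi-HOTΔP replicates 1 and 2 that class held only 12, 2 and 5 islands, met in 100%, 100% and 80%. Narrow islands and the next width class therefore differed by less than the spread between libraries.

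**Figure D4:**
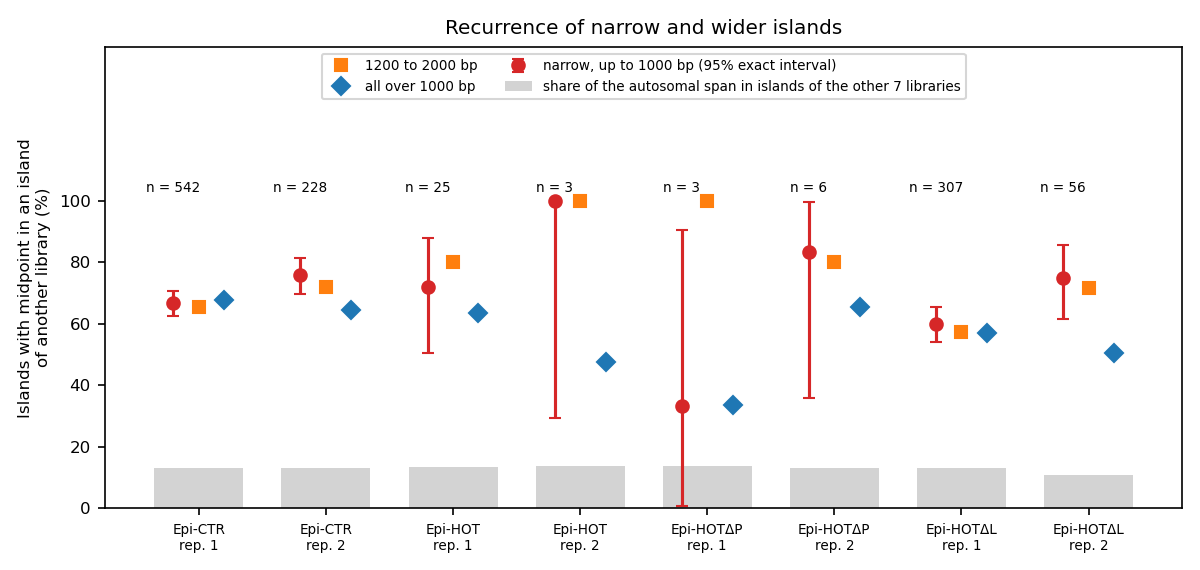
Percent of islands whose midpoint lies in an island of at least 1 other library, for narrow islands (with exact 95% intervals and their number n), islands of 1200 to 2000 bp and all islands over 1000 bp, by library; grey bars give the percent of the autosomal span in islands of the other 7 libraries. Narrow islands of the 5 libraries with at least 25 members were met in 59.9% to 75.9%, against 10.9% to 13.4% of the span. The class of 1200 to 2000 bp holds only 12, 2 and 5 islands in Epi-HOT replicate 2 and Epi-HOTΔP replicates 1 and 2.

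Which library met them differed between narrow and wider islands. The other culture of the line met 40.8% of the narrow islands of Epi-CTR replicate 1 and 30.8% of its wider islands. For Epi-CTR replicate 2 the values were 61.0% and 35.1%. In Epi-HOTΔL they went in opposite directions: replicate 2 met 31.3% of the narrow and 37.4% of the wider islands of replicate 1, while replicate 1 met 33.9% and 15.9% of those of replicate 2. No narrow island of an Epi-HOT or Epi-HOTΔP library was met in the other culture of its line. Of wider islands, 2.81% and 6.49% were met in Epi-HOT replicates 1 and 2, and 11.97% and 1.96% in Epi-HOTΔP replicates 1 and 2. These 4 libraries held only 25, 3, 3 and 6 narrow islands, in that order. At such rates few could be met, so the absence is not read as particular to narrow islands. Over all 8 libraries the difference was 3.07 points and smaller than its spread (exact sign-flip permutation p = 0.547, adjusted 0.667), and without either Epi-CTR library it was -1.89. With lists of equal length it was -5.13 points (exact permutation p = 0.00781, adjusted 0.0469), so the direction turned and passed the threshold. Shortening a list cannot add met islands, so in these 4 libraries the narrow share stayed at 0. Their differences could not be positive, and this p is therefore not read as evidence of a difference.

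Of the 3 libraries of other lines with at least 25 members, the Epi-CTR lists met narrow islands at a higher rate than wider ones. Epi-CTR replicate 1 met 56.0% of the narrow islands of Epi-HOT replicate 1 (24.7% of the wider), 37.1% of those of Epi-HOTΔL replicate 1 (20.1%) and 60.7% of those of Epi-HOTΔL replicate 2 (20.2%). For Epi-CTR replicate 2 the values were 29.0% (18.7%) in Epi-HOTΔL replicate 1 and 42.9% (15.2%) in Epi-HOTΔL replicate 2. In Epi-HOT replicate 1 they were nearly equal, 20.0% (5 of 25) against 19.4%. Epi-HOTΔL replicate 2, whose islands cover 7.26% of the span, went the other way: it met 29.9% and 24.6% of the narrow islands of the Epi-CTR replicates, against 40.1% and 34.7% of their wider islands. Epi-HOTΔP replicate 2 met a smaller share of narrow than of wider islands in all 5 libraries, for example 13.3% against 19.4% for Epi-CTR replicate 1. These pairs share libraries and were not tested.

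**Figure D5:**
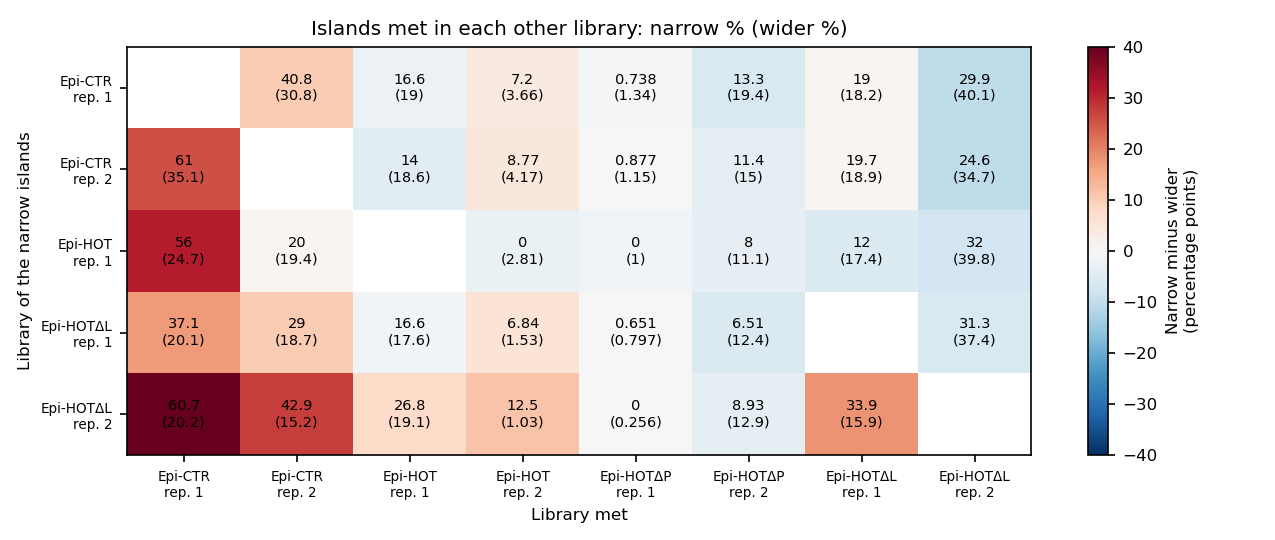
Percent of the narrow islands of 5 libraries (rows) whose midpoint lies in an island of each other library (columns), with the percent for wider islands in brackets; the colour gives narrow minus wider in percentage points. Columns of the Epi-CTR libraries are red, up to 60.7 against 20.2, and that of Epi-HOTΔP replicate 2 is blue. The exception is Epi-CTR replicate 2 in the row of Epi-HOT replicate 1, with nearly equal values of 20 and 19.4.

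The short list of Epi-HOT replicate 2 met narrow islands at a higher rate than wider ones in 4 of the 5 libraries. It covers 0.561% of the span and met 7.20% of the narrow and 3.66% of the wider islands of Epi-CTR replicate 1. The values were 8.77% and 4.17% for Epi-CTR replicate 2, 6.84% and 1.53% for Epi-HOTΔL replicate 1 and 12.5% and 1.03% for Epi-HOTΔL replicate 2. For Epi-HOT replicate 1 they were 0% of 25 and 2.81%. The other list that stands apart, Epi-HOTΔP replicate 1, met at most 0.877% of the narrow islands of these 5 libraries.

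In the lists as deposited, cover by a wider island was the most common state of a narrow island. Wider islands made up 84172 of all 85342 autosomal islands, so most islands that can meet a narrow one are wider. Cover was not computed for another width class and is not shown to be particular to narrow islands. Of the 1170, 672 (57.4%) lay wholly inside a wider island of at least 1 other library, 48 (4.10%) met one in part, 79 (6.75%) met only narrow islands and 371 (31.7%) met no island elsewhere. By library, the share wholly covered was 58.1% in Epi-CTR replicate 1 (95% interval 53.8 to 62.3), 61.8% in Epi-CTR replicate 2 (55.2 to 68.2), 64.0% in Epi-HOT replicate 1 (42.5 to 82.0), 53.7% in Epi-HOTΔL replicate 1 (48.0 to 59.4) and 57.1% in Epi-HOTΔL replicate 2 (43.2 to 70.3). It was 2 of 3 in Epi-HOT replicate 2, 0 of 3 in Epi-HOTΔP replicate 1 and 1 of 6 in Epi-HOTΔP replicate 2, whose members instead met narrow islands in 4 of 6 cases. The mean over the 5 libraries with at least 25 members was 59.0%, and over all 8 it was 47.3% ± 24.8 (SD). The mean over all 8 was 26.5% among islands with an FDR of at most 0.001, and to 13.8% with lists shortened to equal length.

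Cover rarely came from many libraries at once. A wider island of 1 other library covered 336 narrow islands, 2 libraries covered 186, 3 covered 95, 4 covered 45 and 5 covered 10. The 1170 covering islands had a median width of 5.4 kb over all 1223 pairs of narrow and covering island, with a range of 1.2 to 224.0 kb. Covering islands were shortest in Epi-CTR replicate 1 (3.2 kb) and longest, among lists that cover more than 10 members, in Epi-HOTΔL replicate 2 (11 kb). In 7 cases a covering island held 2 narrow islands of 1 list. A narrow island had the lower FDR of the pair in 746 of 1223 cases (61.0%), though FDRs of different lists depend on their unknown depths.

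Inside the covering islands, narrow islands lay near the centre of short ones and had a median close to that of an even spread in long ones. The distance of the midpoint from the nearer edge, as a share of the covering width, runs from 0 at an edge to 0.5 at the centre, and an even spread gives a median of 0.25. The median was 0.356 in covers of 1200 to 2000 bp, where the width of the narrow island itself keeps its midpoint away from the edges. It was 0.265 in covers of 2200 to 5000 bp, 0.25 at 5200 to 20000 bp and 0.239 above 20000 bp.

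Of the 10 narrow islands covered in 5 other libraries, which came from Epi-CTR replicates 1 and 2 and Epi-HOTΔL replicate 1, the 3 with the lowest FDR were 1000 bp islands of Epi-CTR replicate 1. At chr3:129327601-129328600 (FDR 3.27e-11) Epi-CTR replicate 2 had 33.0 kb, Epi-HOT replicate 1 71.6 kb, Epi-HOTΔP replicate 2 7.6 kb and the Epi-HOTΔL replicates 18.0 and 91.0 kb. At chr16:83990401-83991400 (5.43e-11) the covers ran from 2.4 kb in Epi-CTR replicate 2 to 52.4 kb in Epi-HOT replicate 1. At chr19:1759601-1760600 (8.87e-11) they ran from 7.0 kb in Epi-HOTΔL replicate 1 to 41.4 kb in Epi-HOT replicate 1. In all 3 the lists that stand apart had no island.

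The narrow island with the lowest FDR of Epi-CTR replicate 1, 800 bp at chr7:73476201-73477000 with 2.97e-63, ranked 5 in its list. Wider islands lay over it in Epi-CTR replicate 2 (6.6 kb, 1.42e-09), Epi-HOT replicate 2 (4.2 kb, 0.0411), Epi-HOTΔP replicate 2 (12 kb, 1.65e-09) and Epi-HOTΔL replicate 2 (59.4 kb, 1.02e-09). In Epi-CTR replicate 2 the first was chr4:35125601-35126400 (5.25e-30), which Epi-CTR replicate 1 called at 1.4 kb (3.23e-10) and Epi-HOTΔL replicate 1 at 1000 bp (1.61e-09). The islands of all 3 libraries that held this place were at most 1.4 kb wide.

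In the other libraries the leading member was private in some and shared in the rest. For Epi-HOTΔP replicate 2 it was chr8:86733801-86734400 (1.83e-14), at the most recurrent narrow site described above. The leading narrow islands of Epi-HOT replicate 1 (chr10:95462001-95462800, 4.53e-09), Epi-HOTΔL replicate 1 (chr13:90153801-90154400, 2.73e-14) and Epi-HOTΔL replicate 2 (chr8:92052601-92053400, 3.79e-11) met no island of any other library. That of Epi-HOT replicate 2, chr10:98561201-98561600 (2.29e-27), was the same 400 bp in Epi-CTR replicate 2 (0.00193) and lay at the edge of 5.2 kb in Epi-CTR replicate 1 (0.00583). The leading narrow island of all lists was the 800 bp at chr4:190842201-190843000 in Epi-HOTΔP replicate 1, with an FDR of 1.41e-95. Epi-HOT replicate 2 called the identical 800 bp (3.95e-21), and the other 6 libraries had no island there. These 2 lists, of different lines, are the ones that stand apart.

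Regions with a narrow island were then followed through the line comparisons. Islands of the 4 libraries of a comparison were merged where they shared a base, to give regions. Gained means present in each library of the line named first and in no library of the other, and lost means the reverse. A region with a narrow island of the other line therefore cannot be gained, and one with a narrow island of the line named first cannot be lost. For Epi-HOT against Epi-CTR, 762 regions held a narrow island. None of them was gained, where 0.145% of all 29572 regions were, and 230 (30.2%) were lost, where 15.1% of all regions were. Only 7 regions with a narrow island were held by both Epi-HOT libraries, so at most 7 could be gained. Most narrow islands of this comparison came from Epi-CTR, so the gained and lost shares are partly set by the rule for members. Regions with a narrow island rested on a single library in 46.3% of cases, against 70.8% of all regions, and a region of a single library can be neither gained nor lost. Among regions that both Epi-CTR libraries held, the lost share was 64.2% of 358 with a narrow island and 69.3% of all 6461. Among regions held alike, the share lost was thus not higher for those with a narrow island. With lists shortened by FDR to equal length, 19 regions were lost. Without Epi-CTR replicate 2, 416 were lost, and without Epi-HOT replicate 2, 11 were gained.

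Of the 230 lost regions, 18 were narrow in both Epi-CTR libraries, and the 3 of these with the lowest FDRs are given here. At chr1:7029001-7030000 the FDRs were 2.23e-14 and 1.14e-10, and Epi-HOTΔP replicate 2 and Epi-HOTΔL replicate 2 had islands of 9.6 and 8.6 kb over it. At chr4:9522401-9522800 both cultures called the same 400 bp (2.25e-17 and 9.16e-09). At chr14:33992401-33993200 they called 600 and 800 bp (1.66e-09 and 2.34e-07). The last 2 regions had an island in no library of the other 3 lines.

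For Epi-HOTΔL against Epi-HOT, 63 of 380 regions with a narrow island (16.6%) were gained, where 11.6% of all regions were (7 with lists of equal length), and none was lost, where 0.263% of all were. Only 12 regions with a narrow island were held by both Epi-HOT libraries, so at most 12 could be lost. Among regions that both Epi-HOTΔL libraries held, the gained share was 56.3% of 112 with a narrow island and 68.2% of all 4845. Of the 63, 6 were narrow in both Epi-HOTΔL libraries. The first of these was a single window at chr10:135491001-135491200, called in both Epi-HOTΔL libraries (0.000312 and 4.09e-05) and in no other library. The next 2 were the chromosome 22 sites at 18718001 and 18688001 described above, which the Epi-CTR libraries also held. There were 36 gained regions without Epi-HOTΔL replicate 1, 240 without its replicate 2 and 100 without Epi-HOT replicate 1, and 16 lost regions without Epi-HOT replicate 2.

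Epi-HOTΔP and Epi-HOT had only 35 regions with a narrow island between them, and none was gained or lost, where 0.814% and 1.14% of all 14863 regions were. Of the 35, 30 had an island in a single library, 0 were held by both Epi-HOTΔP libraries and 1 by both Epi-HOT libraries. Without Epi-HOTΔP replicate 1 or 2, 4 or 2 regions were gained, and without Epi-HOT replicate 2, 23 were lost. Epi-HOTΔL was also set against Epi-CTR, a comparison added later that shares libraries with the others. Of 1058 regions with a narrow island, 16 (1.51%) were gained, where 4.17% of all 39014 regions were, and 181 (17.1%) were lost, where 6.14% were. Of the regions held by both libraries of a line, those with a narrow island were gained in 6.93% of 231 and lost in 41.0% of 442, against 32.3% and 37.5% of all regions. A region with a narrow island in an Epi-CTR library cannot be gained, and one with a narrow island in an Epi-HOTΔL library cannot be lost. These shares are therefore partly set by the rule for members and are not read as a difference from all regions. All 4 libraries held 151 of these 1058 regions and 1950 of all 39014. For Epi-HOT and Epi-CTR the numbers were 4 of 762 and 113 of 29572, so both were lower there. The Epi-CTR libraries gave more of the narrow islands than the Epi-HOTΔL libraries did, so the shares in the 2 directions are not set against each other.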

How the data were processed

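LSD1 ChIP-seq was done in 4 HEK-based lines with 2 cultures each. The 8 deposited lists are, per the labels, islands of an immunoprecipitate over its own Input. Tools given in the submitters' processing notes are SICER 1.1 and Bowtie2 2.1.0, with hg19 as the build and no roles. List names in the labels give a window of 200 bp, a gap of 1000 bp, an FDR of 0.05 and a filter not explained in the sources used here. The FDR of each island is an adjusted p-value given by the authors; depth is unknown.

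Starts and ends were counted from 1. Groups came from the labels, replicate numbers from titles. Numbers, widths and overlaps (at least 1 bp) were computed with pandas 2.3.3, numpy 2.4.6 and scipy 1.17.1 (Python 3.11.15), with code tested on simulated lists. Narrow and wider islands were compared within libraries by two-sided exact sign-flip permutation, lines by exact permutation, with Benjamini-Hochberg adjustment over 6 tests. Overlaps of libraries are mutual, so the values of the 8 libraries are not fully independent. No gene names or sequences are given, since the gene and promoter tables at hand belong to another build.

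Members, tests and chromosome 19 were chosen with earlier results of these data known. Named regions followed a rule: the 8 narrow sites in most libraries, the narrow island with the lowest FDR per library, up to 3 gained and 3 lost per comparison, and the 3 most covered sites. Alternatives were other width limits (600 and 1400 bp), an FDR of 0.001, equal list lengths, other overlap and merging rules, a narrower comparison class and each library left out. Sex chromosomes were left out by the rule.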

Additional observations from a re-analysis of the deposited data

Results flagged for a closer look

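The lists also hold islands on the sex chromosomes, which were outside the comparisons. Narrow islands there numbered 10 of 41 islands (24.4%) in Epi-CTR replicate 1 and 4 of 39 (10.3%) in Epi-CTR replicate 2, which had 2.64% and 1.53% on autosomes. The other 6 lists held 0 to 2 of 2 to 77 islands. These shares rest on few islands and the differences were not tested.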

How the results depend on the processing

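The lists give no depth, so a missing island is not evidence of missing LSD1. Epi-HOT replicate 2 and both Epi-HOTΔP lists hold only 3 to 6 narrow islands and 2 to 12 islands of 1200 to 2000 bp. The alternatives that changed a call, a direction or a count follow; their causes were not tested, except that fewer libraries raise the smallest possible p.

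The excess of narrow over wider islands met in another library (14.5 points) passed 0.05 after adjustment with narrow islands up to 600 bp (17.2 points), up to 1400 bp (16.6) and with at least 50% of the island covered (15.8). It ran from 4.84 (without Epi-HOT replicate 2) to 18.4 points (without Epi-HOTΔL replicate 2, past the threshold) when single libraries were left out, was 4.17 points with lists of equal length, and turned to -7.50 against islands of 1200 to 2000 bp. In the replicate of the same line (3.07 points) it turned to -5.13 with lists of equal length (past the threshold) and -15.3 against 1200 to 2000 bp, and ran from -1.89 (without either Epi-CTR library) to 6.42. The value of -5.13 includes the Epi-HOT and Epi-HOTΔP libraries, where no narrow island could be met. Passing the threshold is therefore not read as evidence of a difference.

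The deficit on chromosome 19 (-3.46 points) missed the threshold at up to 1400 bp (-0.640), without both lists that stand apart (-4.49), against 1200 to 2000 bp (-5.15), and in the 5 libraries with at least 25 members as such (-4.07), at up to 1400 bp (-4.07) and against 1200 to 2000 bp (-0.908). Leaving out single libraries gave -3.90 to -3.02, still negative but past the threshold only without Epi-HOTΔL replicate 2. Mean cover by wider islands (47.3%) was 26.5% at an FDR of 0.001 and 13.8% with lists of equal length.

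Regions lost in Epi-HOT against Epi-CTR (230) were 69 at up to 600 bp, 510 at up to 1400 bp, 120 at an FDR of 0.001, 19 with lists of equal length and 178 to 416 without single libraries. Regions gained there (0) were 6 at up to 1400 bp, 11 without both lists that stand apart and 0 to 11 without single libraries. Regions gained in Epi-HOTΔL against Epi-HOT (63) were 12, 173, 12 and 7 at 600 bp, 1400 bp, an FDR of 0.001 and equal length, and 36 to 240 without single libraries; those lost (0) were 6 at 1400 bp, 16 without both lists that stand apart and 0 to 16 without single libraries. For Epi-HOTΔP against Epi-HOT, regions gained (0) were 4 without both lists and 0 to 4 without single libraries, and those lost (0) were 13 at 1400 bp, 23 without both lists and 0 to 23 without single libraries.

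The share of narrow islands in Epi-HOTΔP minus Epi-HOT (-0.105 points) ran from -0.213 to 0.00287 when single libraries were left out, the latter, with the sign turned, without Epi-HOT replicate 1. It was -0.906 at up to 1400 bp, -0.310 without both lists that stand apart and -0.224 with lists of equal length. With the replicate number as a block (replicate block) the 3 differences between lines were again -1.81, 0.819 and -0.105 points, with the smallest exact permutation p the block allows, 0.5. Replicate 1 had the higher share in 4 of 4 lines, but the labels do not say that the number marks a batch.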
